A study of Mus musculus with 8 samples.

Results

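The genes described here are fat cell and lipogenic genes, taken as every probe of the deposited value table whose platform gene symbol was Adipoq, Cfd, Retn, Cidec, Acly, Acaca, Fasn, Scd1, Agpat2 or Thrsp. Of these 10 genes, 9 had a named probe, with 10 probes in all among the 24613 on the array. Cfd was not analysed here because no probe carried its symbol. Retn lay below the noise limit on all 8 arrays, so 8 genes were measured, 7 of them above the limit on all 8 arrays. The genes were chosen by their measured values on these arrays, from earlier results in which Adipoq, Thrsp and Agpat2 stood out between the untreated groups. Their values in that comparison are therefore given as a description.

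Gene expression was measured on 8 Illumina beadchips with biotin-labelled RNA, 2 arrays in each of 4 groups. The labels describe macrophages from female mice of the mixed 129/BL6 strain, grown from bone marrow in medium conditioned by L929 cells for 5 days. Cells were wild type or carried IRAK4 KI, a knock-in that leaves the kinase IRAK4 inactive, and each genotype was untreated or given 100 ug/ml acLDL, acetylated low-density lipoprotein, for 24 hours. Whether both samples of a group were grown or taken separately is unstated, and the p-values therefore cover only sample-to-sample spread, possibly of technical origin.

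The values were not those of the labelled cell type alone. Of 12 macrophage genes, 8 were measured, 7 of them above the noise limit on all 8 arrays, and 2 had no named probe. The other 2, Itgam and Fcgr1, each had no further probe and were below the limit on all 8 arrays. For alveolar type II cells, the surfactant-making cells of the lung, 12 of 12 genes were above it on all 8. Sftpc, a surfactant protein gene, had intensities from 30721.1 to 42211.7. Groups are therefore named by the labels of their arrays. Each array had 11026 to 11033 probes above the noise limit of 36.7 intensity units, and precision was limited by the number of arrays.

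Fat cells store triglyceride in large lipid droplets and secrete hormones such as adiponectin and enzymes such as adipsin. Lipogenesis turns citrate into fatty acids: ATP citrate lyase makes acetyl-CoA, acetyl-CoA carboxylase makes malonyl-CoA, fatty acid synthase builds palmitate and stearoyl-CoA desaturase adds a double bond. Acyltransferases then place the fatty acids on glycerol. Fat cells, liver and alveolar type II cells, which make surfactant lipid, all run this pathway.

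The RefSeq promoter windows of 3 of the genes are shown (GRCm38.p6, 250 bases before to 50 after the start site), Adipoq and Thrsp because their levels ordered the arrays alike and Fasn because it is the central lipogenic enzyme and varied less. Adipoq lies at chr16:23146286-23146585 on the plus strand, Thrsp at chr7:97417501-97417800 on the minus strand and Fasn at chr11:120824498-120824797 on the minus strand. Capitals mark CCAAT, the NF-Y motif, on either strand.
Adipoq: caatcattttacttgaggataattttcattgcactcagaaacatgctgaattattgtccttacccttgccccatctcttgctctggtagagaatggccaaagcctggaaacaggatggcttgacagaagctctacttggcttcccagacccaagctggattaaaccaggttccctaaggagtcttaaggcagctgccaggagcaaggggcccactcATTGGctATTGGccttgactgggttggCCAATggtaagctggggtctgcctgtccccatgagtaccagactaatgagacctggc
Thrsp: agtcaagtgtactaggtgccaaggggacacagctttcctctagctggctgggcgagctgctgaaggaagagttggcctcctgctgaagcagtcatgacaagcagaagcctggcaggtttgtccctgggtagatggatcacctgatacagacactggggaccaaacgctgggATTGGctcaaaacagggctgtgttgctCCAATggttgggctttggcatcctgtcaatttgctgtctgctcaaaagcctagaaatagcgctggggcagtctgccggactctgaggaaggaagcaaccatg
Fasn: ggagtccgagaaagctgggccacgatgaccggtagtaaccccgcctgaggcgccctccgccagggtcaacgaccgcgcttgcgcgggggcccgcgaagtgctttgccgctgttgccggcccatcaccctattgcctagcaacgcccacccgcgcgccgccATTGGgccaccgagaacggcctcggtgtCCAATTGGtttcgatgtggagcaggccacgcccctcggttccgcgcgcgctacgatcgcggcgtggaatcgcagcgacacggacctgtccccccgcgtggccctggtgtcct
Each of the 3 windows held more than 1 CCAAT. In Adipoq the matches began at positions -34, -27 and -7 from the start site, in Thrsp at -79 and -52, and in Fasn at -90, -62 and -59, where the last pair overlap. Over the 9 listed genes with a window, 4 had a CCAAT (these 3 and Acly), against 37.4% of all 32851 windows in the table. Agpat2, which followed Adipoq across arrays, had none. The other motifs searched on both strands were TATAAA, the E-box CACGTG, the sterol element core TCACNCCAC and the C/EBP form TTGCNNAA, besides a DR1-type direct repeat. Among the listed genes only Cidec held one of these, TTGCNNAA, present in 10.8% of all windows.

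Adipoq encodes adiponectin, a hormone made almost only by fat cells. Its intensities were 77.4 and 19.0 on the untreated wild type arrays (replicates 1 and 2 throughout), 61.4 and 397.3 on the acLDL wild type arrays, 389.6 and 694.9 on the untreated KI arrays and 214.7 and 365.5 on the acLDL KI arrays. The value of 19.0 was below the noise limit. Adipoq was thus low on 3 of the 4 wild type arrays and high on the 4 KI arrays, and the second acLDL wild type array stood with the KI arrays, at 6.47 times the intensity of its replicate. In bulk RNA, fewer cells of a type and less RNA per cell cannot be told apart.

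Cidec encodes a lipid droplet protein that helps fat cells keep large droplets. It had intensities of 265.7 and 161.2 (untreated wild type), 168.1 and 503.5 (acLDL wild type), 193.9 and 703.6 (untreated KI) and 189.3 and 317.5 (acLDL KI). The highest pair of arrays was the same as for Adipoq, but the groups overlapped in every comparison. Retn, which encodes resistin, another fat cell hormone in mice, lay between 8.4 and 21.1, below the noise limit.

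**Figure D1:**
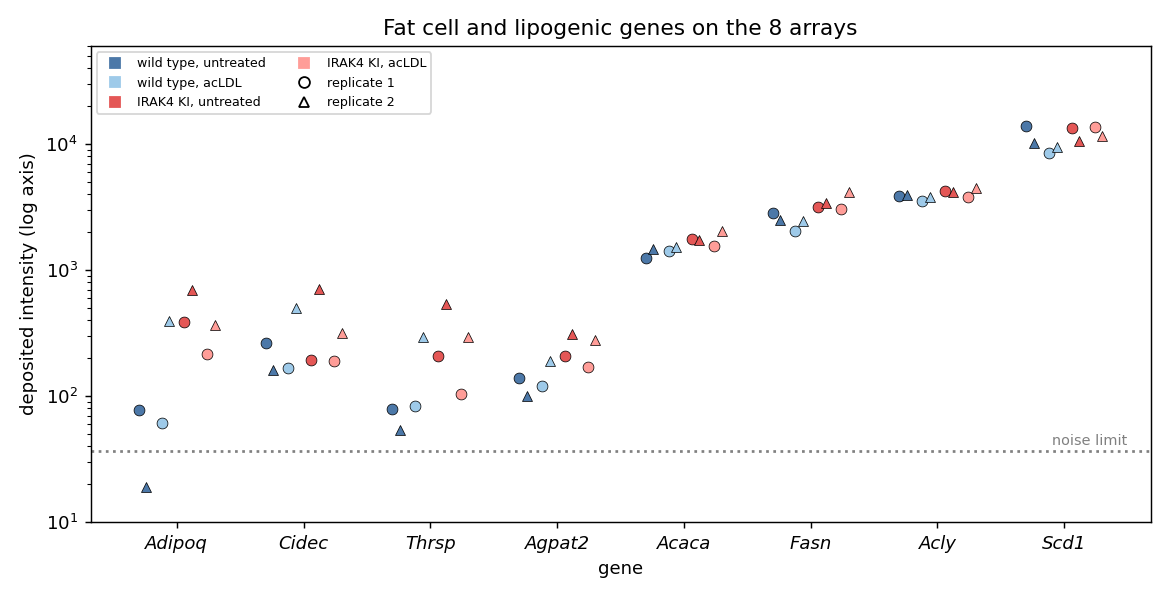
Deposited intensity (log axis) of the 8 measured genes on each of the 8 arrays, coloured by group, with circles for replicate 1 and triangles for replicate 2; the dotted line is the noise limit of 36.7. Adipoq, Cidec, Thrsp and Agpat2 spread widely within groups, while Acaca, Fasn, Acly and Scd1 spread less.

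Thrsp encodes Spot 14, a nuclear protein that promotes lipogenesis in fat cells and liver. Its intensities were 78.5 and 53.8 (untreated wild type), 84.3 and 297.0 (acLDL wild type), 209.6 and 540.0 (untreated KI) and 104.9 and 294.7 (acLDL KI). The order of arrays was close to that of Adipoq, with 3 low wild type arrays and the second acLDL wild type array among the high ones. Agpat2 encodes the acyltransferase that adds the second fatty acid to glycerol and is needed for fat tissue to form. It had intensities of 138.9 and 100.4 (untreated wild type), 120.1 and 189.7 (acLDL wild type), 209.9 and 309.8 (untreated KI) and 171.7 and 279.2 (acLDL KI). On these 2 genes the acLDL wild type array with the high Adipoq value was also above the first acLDL KI array, so the acLDL groups overlapped.

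The enzymes of fatty acid synthesis were brighter and varied less. Acly, ATP citrate lyase, had intensities of 3868.5 and 3918.8 (untreated wild type), 3519.4 and 3789.0 (acLDL wild type), 4240.8 and 4199.5 (untreated KI) and 3820.4 and 4443.4 (acLDL KI). Fasn, fatty acid synthase, had 2854.7 and 2513.8, then 2051.2 and 2467.2, in untreated and acLDL wild type, and 3144.9 and 3412.9, then 3067.9 and 4154.9, in untreated and acLDL KI. All 4 KI arrays were above all 4 wild type arrays for Fasn, and the same held for the carboxylase, 2 of 8 genes against 6.07% of all items. This order includes the untreated comparison known when the genes were chosen, so it is given as a description.

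The acetyl-CoA carboxylase gene Acaca had intensities of 1238.0 and 1473.7 (untreated wild type), 1424.8 and 1526.8 (acLDL wild type), 1766.8 and 1734.5 (untreated KI) and 1556.4 and 2043.7 (acLDL KI). A second Acaca probe was much dimmer, at 93.2 to 124.9, and did not show this order: its log2 difference between untreated KI and wild type was -0.17, against 0.36 for the brighter probe. Scd1, stearoyl-CoA desaturase, was the brightest probe of the set, at 14013.4 and 10132.7 (untreated wild type), 8427.1 and 9425.2 (acLDL wild type), 13419.6 and 10665.3 (untreated KI) and 13651.2 and 11549.6 (acLDL KI). It was lowest on the acLDL wild type arrays and otherwise ranged widely within groups.

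Across the 8 arrays the SD of log2 intensity was 1.24 for Adipoq, 0.91 for Thrsp, 0.68 for Cidec and 0.45 for Agpat2, against a median of 0.17 over all 10187 tested genes and unnamed probes. An SD as large as that of Adipoq was reached by 0.314% of all items and one as large as that of Agpat2 by 3.48%. Much of this spread lay between the 2 arrays of a group. The pooled SD within groups was 0.88 for Adipoq, 0.82 for Cidec and 0.79 for Thrsp, with a median of 0.13 over all items. Fasn (0.31), Scd1 (0.27), Acaca (0.21) and Acly (0.11) had smaller SDs over the 8 arrays. An SD as large was reached by 11.2% of all items for Fasn, 16.9% for Scd1, 30.7% for Acaca and 84.5% for Acly. Fasn, Scd1 and Acaca thus still varied more than most items, and Acly less.

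Whether fat cell and lipogenic genes varied together was examined over the 8 arrays by correlating the log2 intensity of every item with that of Adipoq. Thrsp had Pearson's r = 0.94 (exact permutation p = 0.00102) and Spearman's rho = 0.95 (exact permutation p = 0.00114). Agpat2 had r = 0.94 (exact permutation p = 0.000372) and rho = 0.90 (exact permutation p = 0.00456). An r as high as that of Thrsp was found for 0.236% of 10186 items and one as high as that of Agpat2 for 0.226%. Neither passed adjustment over all items (exact permutation adjusted p = 0.194 and 0.183). These 3 genes were singled out for the same genotype difference, which by itself favours a shared pattern.

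Cidec followed Adipoq with r = 0.73 (exact permutation p = 0.0386, adjusted p = 0.271) and rho = 0.88 (exact permutation p = 0.00724, adjusted p = 0.41). The synthesis enzymes were less alike: r with Adipoq was 0.68 for Acaca (exact permutation p = 0.0604, adjusted p = 0.305), 0.62 for Fasn (exact permutation p = 0.102, adjusted p = 0.37) and 0.59 for Acly (exact permutation p = 0.127, adjusted p = 0.404). Their rho values were 0.62, 0.50 and 0.31 (exact permutation p = 0.115, 0.216 and 0.462). Scd1 had r = 0.17 (exact permutation p = 0.68, adjusted p = 0.852) and rho = 0.05 (exact permutation p = 0.935).

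No item of 10186 passed for Adipoq (0% called), while 17.5% had an unadjusted exact permutation p under 0.05 and 3.83% had an r of 0.8 or more. With 8 arrays the smallest p is 2.5e-05, so the adjusted threshold could be met only by at least 6 items together. The Adipoq levels had a gap of 1.09 on the log2 scale between 3 low and 5 high arrays, against ranges of 0.94 and 1.51 within them, and neither side has the 6 arrays needed to test the relation inside it. Without the 2 arrays farthest from the median, which were the second untreated and the first acLDL array of wild type, r with Adipoq over 6 arrays was 0.94 for Thrsp, 0.87 for Agpat2, 0.75 for Acaca, 0.59 for Cidec, 0.50 for Acly and 0.29 for Fasn. For Scd1 it turned to -0.67 (exact permutation p = 0.14), so its weak positive value rested on those arrays.

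**Figure D2:**
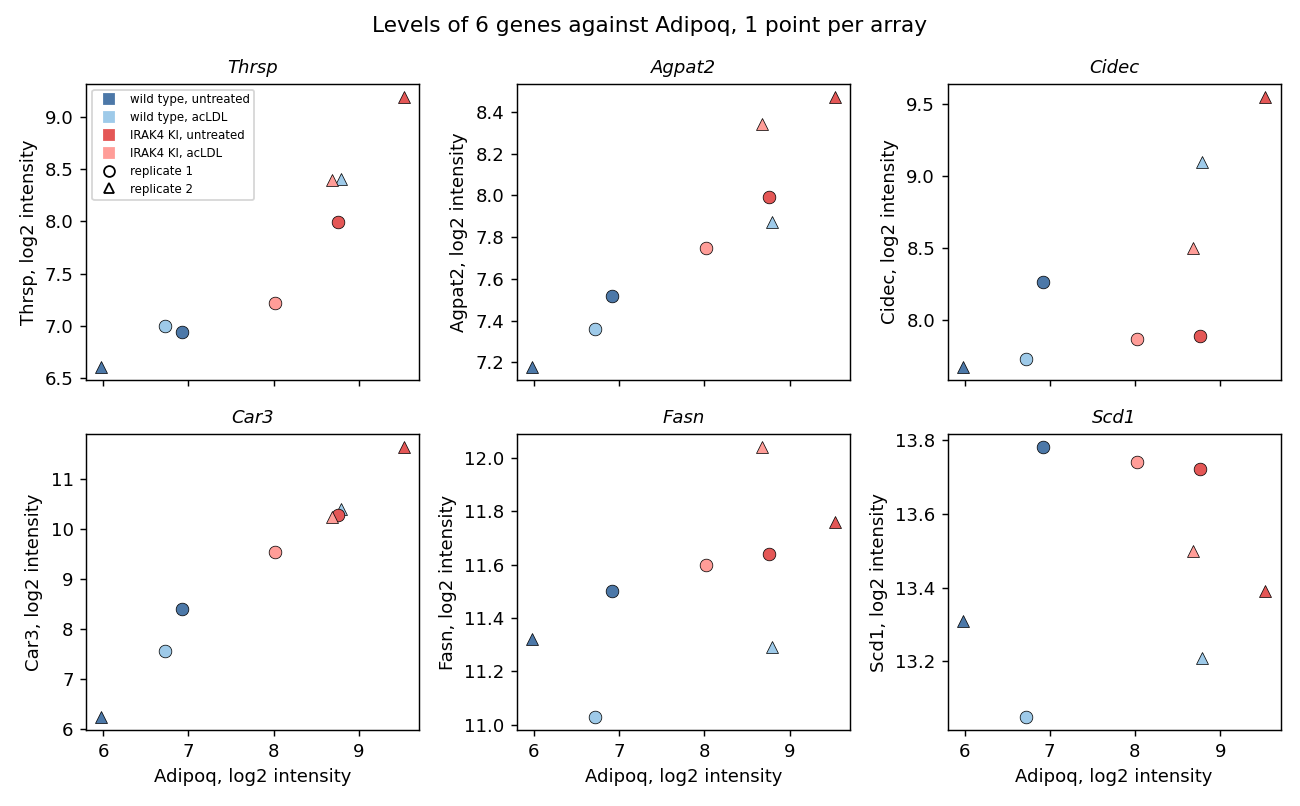
Log2 intensity of Thrsp, Agpat2, Cidec, Car3, Fasn and Scd1 against that of Adipoq, 1 point per array, coloured by group, with circles for replicate 1 and triangles for replicate 2. Thrsp, Agpat2 and Car3 lie close to a rising line (r of 0.94, 0.94 and 0.99), Fasn scatters more (0.62) and Scd1 shows no trend (0.17).

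With Fasn as the reference, Acly was nearest among the listed genes, at r = 0.91 (exact permutation p = 0.00241, adjusted p = 0.0822) and rho = 0.88 (exact permutation p = 0.00724), and 0.687% of items had an r as high. Agpat2 had r = 0.79 (exact permutation p = 0.0188, adjusted p = 0.144), Acaca 0.73 (exact permutation p = 0.0386, adjusted p = 0.191), Scd1 0.58 (exact permutation p = 0.133), Thrsp 0.57 (exact permutation p = 0.147) and Cidec 0.36 (exact permutation p = 0.38). In the same order rho was 0.79, 0.81, 0.55, 0.48 and 0.48 (exact permutation p = 0.0279, 0.0218, 0.171, 0.243 and 0.243). No item passed adjustment (0% called), with 23.2% at an unadjusted exact permutation p under 0.05. Without the 2 arrays farthest from the Fasn median (acLDL KI replicate 2 and acLDL wild type replicate 1), r over 6 arrays was 0.70 for Acly, 0.72 for Agpat2 and 0.51 for Acaca. These 14 relations of the listed genes with Adipoq or Fasn hold the Adipoq and Fasn pair from both sides. They were computed among all items, and none passed.

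The difference between the 2 arrays of a group does not use the group means on which the genes were chosen. From replicate 1 to replicate 2, Adipoq differed by -0.94 in untreated wild type, 2.07 in acLDL wild type, 0.77 in untreated KI and 0.66 in acLDL KI on the log2 scale. Thrsp differed by -0.32, 1.41, 1.20 and 1.19, Cidec by -0.59, 1.37, 1.65 and 0.63, and Agpat2 by -0.34, 0.51, 0.48 and 0.58 in the same groups. Fasn had the same 4 signs with smaller sizes, at -0.18, 0.26, 0.12 and 0.43. The signs matched those of Adipoq in all 4 groups for these 4 of the 7 other genes, against 7.31% of all items. Acly, Acaca and Scd1 matched in 2 of 4 groups each.

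Other adipocyte genes showed which part of the pattern reached beyond the listed genes. Of 20 such genes, 19 had a named probe, 11 were measured and 8 lay below the noise limit on all 8 arrays, among them Plin1, the main droplet coat protein of fat cells, and Fabp4, their fatty acid carrier. Of the 11 measured, 9 had a positive r with Adipoq and 5 had one of 0.8 or more, at a median of 0.73 against -0.037 over all items, of which 47.8% had a positive r. Slc2a4 (r = 0.83) and Lep (r = 0.73) were above the noise limit on only 2 arrays each, all with high Adipoq. The filter thus favoured a positive r for them, and the 8 genes below noise do not enter the median. Car3, a carbonic anhydrase abundant in fat cells and also present in skeletal muscle, had r = 0.99 (exact permutation p = 2.5e-05, the smallest possible, adjusted p = 0.0842) and rho = 1.00 (exact permutation p = 4.96e-05), and r = 0.99 over 6 arrays. Its intensities were 294.1 and 31.4 (untreated wild type), 143.4 and 1303.0 (acLDL wild type), 1204.8 and 3153.1 (untreated KI) and 698.2 and 1163.1 (acLDL KI). By this brightest probe Car3 ordered the 8 arrays exactly as Adipoq did. A second Car3 probe, above noise on 6 arrays, swapped untreated KI replicate 1 (213.4) and acLDL wild type replicate 2 (197.4) and otherwise kept the order. Adig, a gene of fat cell differentiation, had r = 0.93 (exact permutation p = 0.00112, adjusted p = 0.194) and rho = 0.88 (exact permutation p = 0.00724). Pparg, the nuclear receptor that drives fat cell formation and is also high in alveolar macrophages, had r = -0.01 (exact permutation p = 0.973) and rho = 0.02 (exact permutation p = 0.977). Lpl, a lipase of fat, muscle and macrophages, had r = -0.04 (exact permutation p = 0.904) and rho = -0.19 (exact permutation p = 0.665). By the replicate differences, Lpl, Pparg, Car3 and Adig matched the signs of Adipoq in all 4 groups, 4 of the 11 against 7.31% of all items. The full match of Lpl and Pparg rested on near-zero differences, -0.04 for Lpl in untreated wild type and 0.03 for Pparg in acLDL KI. Itgam, Fcgr1, Sftpc, Plin1, Fabp4, Slc2a4, Car3, Pparg and Lpl, like the brown fat, muscle, alveolar and macrophage genes named next and the regulators Srebf1 and Mlxipl, were chosen after their values were seen unless the rule for named genes gives them.

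Of 10 genes of brown fat, 5 were measured, 4 of them with an r of 0.80 to 0.88 with Adipoq, and Elovl3, Dio2, Prdm16, Zic1 and Ppara were below the noise limit on all 8 arrays. Ucp1, the uncoupling protein that defines brown fat, had intensities of 202.0 and 2.5 (untreated wild type), -1.9 and 1137.0 (acLDL wild type), 549.6 and 287.8 (untreated KI) and 158.0 and 241.6 (acLDL KI). It was highest on the acLDL wild type array with the high Adipoq value and not above noise on the 2 arrays with the lowest Adipoq. Cidea, a droplet protein of brown fat, had r = 0.87 with Adipoq (exact permutation p = 0.00766, adjusted p = 0.209) and rho = 0.90 (exact permutation p = 0.00456). Over 6 arrays r was 0.93 for Cidea but 0.66 for Cox7a1, 0.61 for Cox8b and 0.43 for Ucp1. By the replicate differences 0 of the 5 matched the signs of Adipoq in all 4 groups, against 7.31% of all items. In acLDL KI this difference was negative for Cox7a1 (-0.31), Cox8b (-0.35) and the heart gene Myl7 (-0.58), and 0.66 for Adipoq. Cox7a1 and Cox8b had the same signs in all 4 groups as the heart genes Myl7, Myh6, Tnnt2 and Tnni3. The skeletal muscle genes Acta1 and Ckm and the adipocyte genes Plin4 and Slc2a4 shared these signs, and the heart gene Actc1 did not. Whether Cox7a1 and Cox8b reflected brown fat or muscle was not tested. Cox8b was the brightest of the 5 on every array. Ppargc1a, a coactivator of mitochondrial genes, did not follow, with r = -0.15 (exact permutation p = 0.71) and rho = -0.21 (exact permutation p = 0.619). The summed intensity of the 5 genes ranged from 728.1 to 1733.4 in untreated wild type, 730.8 to 3904.7 in acLDL wild type, 2470.6 to 3167.1 in untreated KI and 1909.1 to 2094.9 in acLDL KI. Most of that sum was Cox8b (317.2 to 1505.3) and Cox7a1 (253.0 to 902.1). For the 11 other adipocyte genes the ranges were 5387.6 to 5749.3, 4436.6 to 7612.7, 6789.9 to 10454.1 and 5282.7 to 7456.3. Most of this second sum was Gpd1 (2009.7 to 3586.9) and Lpl (1572.8 to 2702.6), with r of 0.82 and -0.04 with Adipoq.

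Muscle genes also stood apart on some arrays. Of 14 skeletal and cardiac muscle genes, 10 were measured, and all 10 had a positive r with Adipoq over 8 arrays. The 5 heart genes Myl7, Tnnt2, Myh6, Actc1 and Tnni3 had r from 0.82 to 0.92, and from 0.57 to 0.77 over 6 arrays. The 5 skeletal muscle genes had r from 0.14 to 0.54, and over 6 arrays 4 of them were below 0 (Acta1 -0.16, Atp2a1 -0.25, Tnnt3 -0.11 and Tnnc2 -0.10) and Ckm was at 0.07. Myl7, an atrial myosin light chain, had r = 0.92 (exact permutation p = 0.00439, adjusted p = 0.194) and rho = 0.81 (exact permutation p = 0.0218). Myl7 intensities were 558.0 and 295.6 (untreated wild type), 390.7 and 2345.5 (acLDL wild type), 1711.1 and 1986.0 (untreated KI) and 2222.2 and 1471.7 (acLDL KI). Acta1, the actin of skeletal muscle, was at 6482.6 on untreated wild type replicate 1 and 9544.5 on untreated KI replicate 2 and below noise on the other 6 arrays. Summed muscle intensity ranged from 2662.1 to 15198.4, 2221.8 to 10326.9, 7816.6 to 24511.9 and 5961.4 to 9550.6 in untreated wild type, acLDL wild type, untreated KI and acLDL KI. The part of fat or muscle tissue in the values of the listed genes was not tested.

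**Figure D3:**
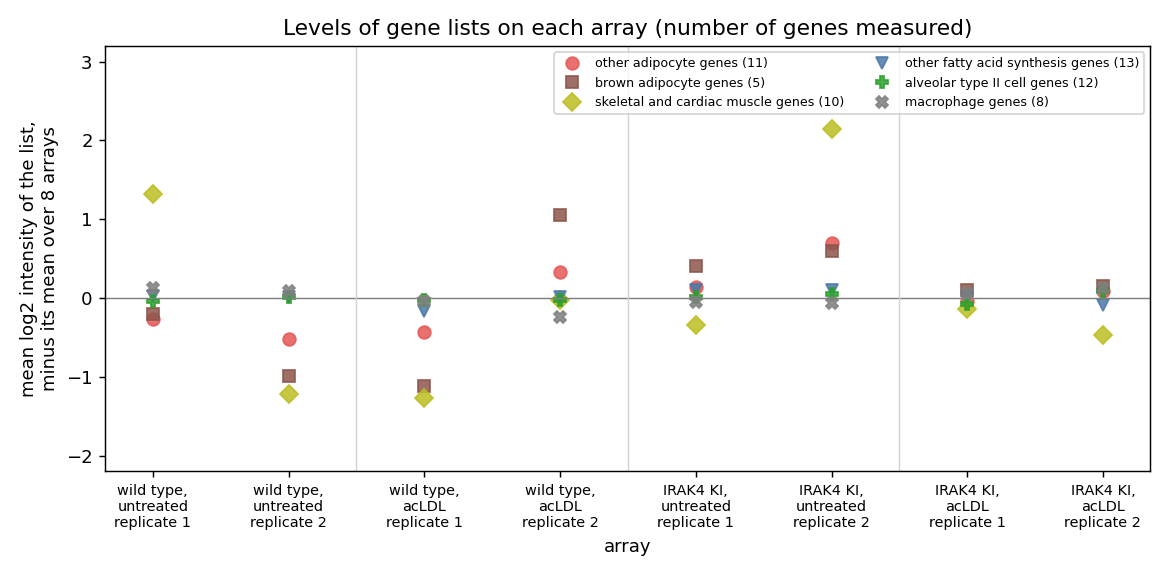
Mean log2 intensity of the measured genes of 6 lists on each array, minus the mean of the 8 arrays; symbols are lists and the legend gives the number of genes. Adipocyte, brown adipocyte and muscle genes were lowest on the second untreated and the first acLDL array of wild type, while the average over the alveolar type II genes stayed within 0.2 of its mean.

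Alveolar type II genes, from a second possible site of lipogenesis, went both ways. Their r with Adipoq ran from -0.80 for Sftpd to 0.85 for Lamp3, with a median of 0.05, and their r with Fasn from -0.58 to 0.61, with a median of 0.14. Replicate differences of 3 of the 12 matched the signs of Adipoq in all 4 groups, against 7.31% of all items. The mean log2 intensity of the list lay between 11.55 and 11.72 and the summed intensity between 105011.1 and 118660.3 on the 8 arrays. Most of that sum was Sftpc and Sftpd (34152.1 to 46069.8), among the brightest probes, where the same values recur on different arrays. Macrophage genes had an r from -0.72 to 0.39 with Adipoq (median -0.23) and from -0.84 to 0.84 with Fasn (median 0.15). Their summed intensity, 23908.2 to 38793.6, was mostly that of Lyz2 (16521.1 to 32663.3), a lysozyme gene that alveolar type II cells also express. The mean log2 intensity of the 8 macrophage genes was 9.38 to 9.42 in untreated wild type, 9.05 to 9.26 in acLDL wild type, 9.23 to 9.25 in untreated KI and 9.36 to 9.42 in acLDL KI. Of 7 mesothelial genes, 5 were measured, with a median r of 0.20 with Adipoq.

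The genes nearest to Adipoq, by Pearson's r over 8 arrays among named genes above noise on all 8, were Apc, Son, Glg1, Nqo1, Etfdh, Ankrd1, Zmynd11 and Rnf44, with r from 0.955 to 0.977 (exact permutation adjusted p from 0.158 to 0.194) and rho from 0.81 to 0.98. Etfdh encodes a mitochondrial electron transfer enzyme of fatty acid oxidation, Nqo1 a quinone reductase and Ankrd1 a nuclear protein of heart and skeletal muscle. The genes nearest to Fasn were Abca2, Psma1, Vps29, Ppib, Nif3l1, Rexo2, Zfp36l1 and Igfbp7, with r from 0.966 to 0.986 (exact permutation adjusted p from 0.0689 to 0.0705) and rho from 0.90 to 1.00. Abca2 encodes a lipid transporter of endosomes and lysosomes. None of the listed genes was among either set of 8, and none of the 16 passed.

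Between untreated KI and untreated wild type, the comparison known when the genes were chosen, mean log2 intensity of Adipoq was 9.14 ± 0.54 in KI and 6.45 ± 0.67 in wild type (SD, n = 2 each). Both KI arrays were above both wild type arrays for 6 of the 8 measured genes (Adipoq, Acly, Acaca, Fasn, Agpat2 and Thrsp), where 23.7% of all items had this order. Log2 differences ran from 0.01 for Scd1 to 2.69 for Adipoq, and 0.00982% of all items passed after adjustment.

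The acLDL arrays are other arrays than those, and there the fat cell genes did not separate the genotypes. Adipoq was at 8.35 ± 0.47 in KI and 7.75 ± 1.46 in wild type (SD, n = 2 each), a log2 difference of 0.59 (95% interval -0.87 to 2.06, limma adjusted p = 0.608). The sign of this difference rested on single arrays: it was 1.63 without acLDL wild type replicate 2 and -0.44 without acLDL wild type replicate 1. Thrsp had a difference of 0.10 (95% interval -1.21 to 1.42, limma adjusted p = 0.929), which was 0.81 without acLDL wild type replicate 2, -0.60 without acLDL wild type replicate 1 and -0.49 without acLDL KI replicate 2. Cidec had -0.23 (95% interval -1.60 to 1.14, limma adjusted p = 0.842) and Agpat2 0.43 (95% interval -0.18 to 1.04, limma adjusted p = 0.368). The Cidec value turned to 0.45 without acLDL wild type replicate 2 and to 0.09 without acLDL KI replicate 1.

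On the acLDL arrays the synthesis enzymes had higher values in KI, by their brightest probes. Fasn had 1.58 times the wild type level in KI (log2 difference 0.66, SE 0.17, 95% interval 0.27 to 1.04, limma adjusted p = 0.107), and Scd1 1.41 times (log2 difference 0.49, SE 0.19, limma adjusted p = 0.188). The Acaca value was 0.27 (SE 0.15, limma adjusted p = 0.331) and that of Acly 0.17 (SE 0.11, limma adjusted p = 0.396). For Fasn, Scd1, Acaca and Acly both KI arrays lay above both wild type arrays, 4 of 8 measured genes against 24.1% of all items. The second Acaca probe overlapped between the genotypes (log2 difference -0.03), and Scd1 had shown no such order on the untreated arrays (log2 difference 0.01). None of the 8 passed the test (0.216% of all items did), and at an unadjusted p under 0.05 there were 2 (Fasn and Scd1), where 21.8% of all items had such a p. The second share is near that of all items.

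**Figure D4:**
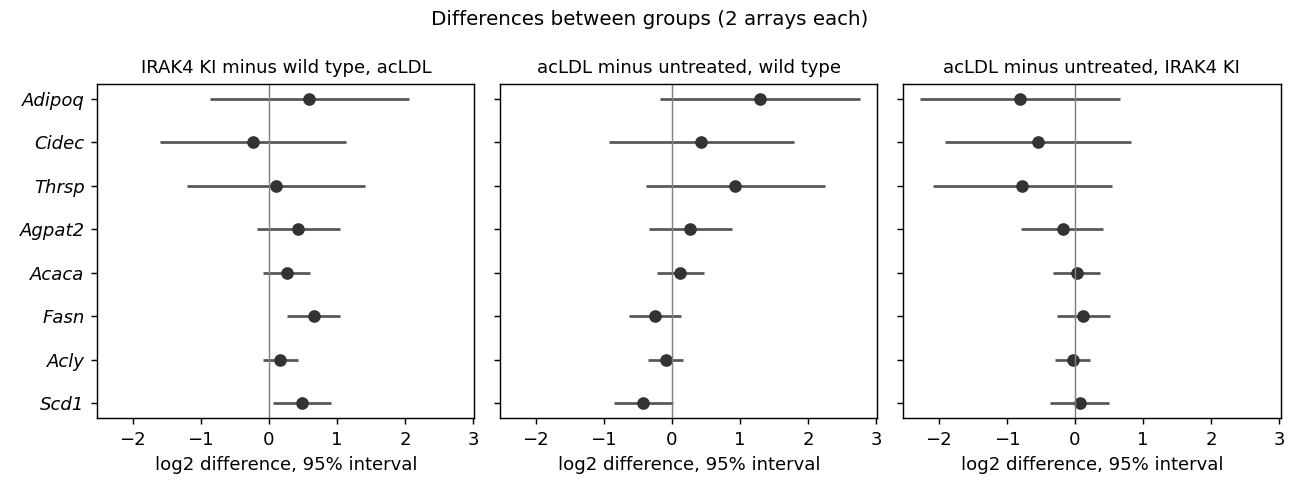
Log2 differences with their 95% intervals from the limma model for the 8 measured genes, in 3 comparisons of 2 against 2 arrays. Intervals for Adipoq, Cidec and Thrsp span more than 2 log2 units and include 0 in each panel; only Fasn and Scd1, between genotypes under acLDL, have intervals above 0, and no gene passed after adjustment over all items.

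The response to acLDL was not detectable at this number of arrays for any of the 8 genes. These comparisons share the untreated arrays on which the genes were chosen. In wild type, Adipoq had a log2 difference of 1.30 between acLDL and untreated (95% interval -0.17 to 2.77, limma adjusted p = 0.485) and Thrsp one of 0.93 (95% interval -0.38 to 2.25, limma adjusted p = 0.565). Scd1 had -0.42 (95% interval -0.85 to 0.01, limma adjusted p = 0.435), Fasn -0.25 (95% interval -0.63 to 0.14, limma adjusted p = 0.599) and Acly -0.09 (limma adjusted p = 0.788). For Acly, Fasn and Scd1 both acLDL arrays were below both untreated arrays, an order found for 19.9% of all items, and for Thrsp both were above (21.9% of all items). In the test, 0 of 8 genes and 0.177% of all items passed, and at an unadjusted limma p under 0.05 there were 0 of 8 genes and 12.0% of all items.

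In KI, the acLDL differences were -0.80 for Adipoq (95% interval -2.27 to 0.67, limma adjusted p = 0.843), -0.78 for Thrsp (95% interval -2.09 to 0.54, limma adjusted p = 0.835), -0.54 for Cidec and -0.18 for Agpat2, and between -0.03 and 0.12 for Acly, Acaca, Scd1 and Fasn. Adipoq was lower on both acLDL arrays than on both untreated arrays, as were 20.7% of all items, and the other 7 overlapped. None passed, against 0.0196% of all items, and none had an unadjusted limma p under 0.05, against 6.46%. The difference between the genotypes' acLDL effects was -2.10 for Adipoq (SE 0.90, limma adjusted p = 0.578), -1.71 for Thrsp (limma adjusted p = 0.591) and 0.37 for Fasn (limma adjusted p = 0.686). No gene described passed, against 0.0491% of all items, and only Adipoq had an unadjusted limma p under 0.05, against 8.59%.

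Other genes of fatty acid synthesis did not follow the listed enzymes closely. Of 19, 13 were measured, and 10 of them had a positive r with Fasn (46.5% of all items), at a median of 0.20. Under acLDL 10 of the 13 had a value above 0 for KI over wild type (46.1% of all items), at a median log2 difference of 0.11 against -0.029 over all items, and none passed. For Slc25a1, the citrate carrier that feeds Acly, KI minus wild type was -0.29 (SE 0.10, limma adjusted p = 0.149) and for Elovl1, an elongase of very long fatty acids, -0.50 (SE 0.20, limma adjusted p = 0.202), both opposite in sign to Fasn. For Elovl1 the other 2 probes above noise had higher intensities on both acLDL KI arrays than on both acLDL wild type arrays, so its probes disagreed.

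Genes of triglyceride synthesis, storage and breakdown were measured for 17 of 20, with a median log2 difference of -0.02 between genotypes under acLDL, 7 higher and 10 lower. Dgat1, which completes triglyceride synthesis in many tissues, was at -0.45 (SE 0.13, limma adjusted p = 0.125) and Mgll, a monoglyceride lipase, at 0.27 (SE 0.11, limma adjusted p = 0.195). Dgat2, the enzyme with the same reaction that fat cells and liver use, was chosen after its values were seen. Its intensities were 191.6 and 210.7 (untreated wild type), 236.9 and 626.0 (acLDL wild type), 590.9 and 873.7 (untreated KI) and 340.8 and 304.8 (acLDL KI), with r = 0.88 to Adipoq (exact permutation p = 0.00662, adjusted p = 0.209) and rho = 0.90 (exact permutation p = 0.00456). Dgat2 was thus high on the same second acLDL wild type array, while Dgat1 had r = -0.54 (exact permutation p = 0.161) and rho = -0.48 (exact permutation p = 0.243).

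Among 22 regulators of lipogenesis, 14 were measured. Srebf1 and Mlxipl, which encode the insulin-responsive and the carbohydrate-responsive activators of lipogenic genes, were below the noise limit on all 8 arrays. Insig1, a sterol-sensing protein that holds SREBP precursors in the endoplasmic reticulum and is itself an SREBP target, had intensities of 71.8 and 66.4 (untreated wild type), 50.4 and 73.7 (acLDL wild type), 130.2 and 135.1 (untreated KI) and 107.8 and 141.1 (acLDL KI). By this brightest probe all 4 KI arrays lay above all 4 wild type arrays, as for Fasn and Acaca (6.07% of all items). That order again includes the untreated comparison known beforehand. A second Insig1 probe, above noise on 6 arrays, broke it, with 44.9 on acLDL KI replicate 1 and 50.7 on untreated wild type replicate 2. Within each treatment that probe was also higher on both KI arrays. Under acLDL the Insig1 difference was 0.67 (SE 0.14, limma adjusted p = 0.0878), which did not pass. Klf15, a transcription factor of metabolism, was at -0.58 (SE 0.14, limma adjusted p = 0.105). Srebf2, an SREBP gene chosen after its values were seen, went opposite to Fasn, with r = -0.95 (exact permutation p = 0.000198, adjusted p = 0.0705). Its rho with Fasn was -0.95 (exact permutation p = 0.00114). Insig1 went with Fasn, at r = 0.92 (exact permutation p = 0.00057, adjusted p = 0.078) and rho = 0.93 (exact permutation p = 0.00223). The Srebf2 difference under acLDL was -0.36 (SE 0.11, limma adjusted p = 0.141), which did not pass.

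In the lists of other cell types the smallest p-values between genotypes under acLDL belonged to Tyrobp (0.94, SE 0.17, limma adjusted p = 0.076) and Sirpa (-0.40, SE 0.11, limma adjusted p = 0.115) among macrophage genes. Those of the adipocyte list were Lep, the fat cell hormone leptin (-0.49, SE 0.35, limma adjusted p = 0.436), and Adig (0.36, SE 0.33, limma adjusted p = 0.545). For brown fat they were Cox7a1 (0.41, SE 0.50) and Ppargc1a (-0.11, SE 0.19), for muscle Actc1 (0.83, SE 0.60) and Myl7 (0.86, SE 0.68), for alveolar type II cells Napsa (-0.21, SE 0.14) and Sftpa1 (0.22, SE 0.15) and for mesothelium Krt19 (0.26, SE 0.14) and Gpm6a (-0.15, SE 0.17). None of these log2 differences passed.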

How the data were processed

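The authors deposited linear intensity values for every probe, and BeadStudio is the tool that the submitters' processing notes record, without a version. About 29.2% of values are below 0 and sorted columns differ by at most 1.4 units, so background subtraction and quantile normalization were inferred from the values. Column medians are 23.7 or 23.8. In a second table the 16 per-sample columns could not be tied to samples by name and stayed unused. Gene names came from the annotation of a platform other than the labelled mouseRef-8 v2 chip, joined by probe identifier (20984 probes with 1 symbol, 1 with several, 3628 with none).

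Intensities were corrected with limma's normexp (offset 16) and log2 transformed. The offset compresses folds of dim probes. Noise was the root mean square of negative values, 12.2 units, and probes above 3 times it on at least 2 arrays were kept, with the brightest probe per gene (10187 items, 8757 named). One limma fit (version 3.58.1, R 4.3.3) on 4 group means gave 5 comparisons with 4 residual degrees of freedom and Benjamini-Hochberg adjustment over all items, at a threshold of 0.05, and no sample was dropped or imputed. Correlations used exact two-sided permutation over all 40320 orders of 8 arrays, adjusted over 10186 items. The procedures were tested on simulated data. The comparisons share arrays and are not independent.

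The genes and lists were chosen with earlier results of these data known. Named genes are the listed ones, the 2 of smallest p between genotypes under acLDL in each other list, and the 8 nearest to Adipoq and to Fasn. Others are said to be chosen after their values were seen. Alternatives were offset 50, no background correction (values under 1 set to 1), median centring, other filters, every probe on its own, only the groups compared, a replicate block, rank correlation and leaving out each array. The replicate numbers are not stated to pair samples.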

Additional observations from a re-analysis of the deposited data

How the results depend on the processing

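None of the 8 measured genes passed in any comparison under any of 828 alternative values, where the lowest adjusted p was 0.0799, and 802 kept their direction. The number of all items past the threshold, 18 for acLDL in wild type, 2 for acLDL in KI, 5 for the difference of these effects, 1 between untreated genotypes and 22 between genotypes under acLDL, moved more, and the cause was not tested except where fewer arrays or other items entered. Without background correction these counts were 5, 1, 2, 0 and 5, and with no filter 6, 1, 3, 0 and 8. With only the compared groups they were 10 for acLDL in wild type, 0 between untreated genotypes and 7 under acLDL. With items above noise on all 8 arrays they were 0 for acLDL in KI and 61 between genotypes under acLDL, and with offset 50 the latter was 53. Leaving out each array in turn gave 1 to 30, 0 to 6, 1 to 4, 0 to 1 and 2 to 15. For the correlations no item passed with any array left out (0 to 0). With 7 arrays there are only 5040 orders, so the smallest p is larger and more items must pass together. A pass was therefore harder to reach in that repeat. The lowest exact permutation adjusted p of a listed gene there was 0.0867, for Acaca with Fasn.

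The replicate numbers are shared labels only. Correlations of replicate differences between groups ran from -0.31 to 0.29, and with the replicate number as a block the counts were 7 for acLDL in wild type, 1 for the difference of effects and 0 between untreated genotypes.

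Leaving out 1 array at a time turned the sign of 15 quantities. For acLDL in wild type Cidec ranged from -0.25 to 1.12. For acLDL in KI the ranges were -1.36 to 0.29 for Cidec, -0.14 to 0.07 for Acly, -0.17 to 0.22 for Acaca, -0.09 to 0.34 for Fasn, -0.10 to 0.23 for Scd1 and -0.47 to 0.11 for Agpat2. For the difference of effects they were -0.05 to 0.17 for Acly and -0.29 to 0.10 for Acaca, and between untreated genotypes -0.08 to 1.57 for Cidec and -0.23 to 0.24 for Scd1. Between genotypes under acLDL they were -0.44 to 1.63 for Adipoq, -0.91 to 0.45 for Cidec and -0.60 to 0.81 for Thrsp, and the r of Scd1 with Adipoq ranged from -0.10 to 0.39. Over 6 arrays, a setting chosen after seeing the data, that r was -0.67. The second Acaca probe gave -0.03 for acLDL in wild type, 0.15 for the difference of effects, -0.17 between untreated genotypes and -0.03 under acLDL.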
